A study of Mus musculus with 18 samples.

Results

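Retinoic acid, the active form of vitamin A, acts through a short chain of proteins that take up retinol, oxidise it, carry the acid, bind DNA in response to it and break it down. The genes described here are 9 members of that chain: Stra6, Aldh1a1, Aldh1a2, Aldh1a3, Crabp1, Crabp2, Rarb, Rarg and Cyp26b1. They were chosen by gene name in all 3 deposited tables, out of 35310 gene identifiers in the series. Each level is the FPKM of a gene, a count scaled to transcript length and library size, with transcripts summed per gene.

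The series holds 18 mouse RNA-seq libraries, 3 in each of 6 groups. Wild-type MCA205 cells were compared with MCA205 cells labelled sgNAT10, meaning that a CRISPR guide against Nat10 had been used, and the same was done for TC1 cells in culture. Day 8 subcutaneous tumours, labelled as grown from wild-type or sgNAT10 TC1 cells in mice, formed the last pair of groups. MCA205 is a chemically induced mouse fibrosarcoma line, and TC1 is usually given as a line of lung epithelial origin that carries papillomavirus oncogenes; here the labels name fibrosarcoma for it too. No agent other than the guide is named, every group is of tumour cells or tumour tissue, and the labels name neither separate clones, cultures or mice nor the age or strain of the hosts. The p-values thus rest on the spread among libraries alone, possibly a technical one, and a difference that arose in 1 cell population apart from the guide cannot be told apart from its effect. NAT10 places N4-acetylcytidine on RNA. The study, by its title, concerns NAT10, interferon responses and antitumour immunity, and does not name retinoids.

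In the textbook pathway, STRA6 is a membrane receptor that takes retinol from its plasma carrier into the cell. Retinol is oxidised to retinal and, by the ALDH1A enzymes, irreversibly to retinoic acid. CRABP1 and CRABP2 bind the acid in the cytoplasm, CRABP2 delivering it to nuclear receptors, while the receptors RARα, RARβ and RARγ work as pairs with RXR proteins on direct repeats of a short half-site. CYP26 enzymes oxidise retinoic acid to products that are cleared. Several genes of the chain, among them Rarb, Stra6, Crabp2, Cyp26a1, Cyp26b1 and Dhrs3, are known to respond to retinoic acid themselves.

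Totals ran from 51661298 to 78501790 estimated counts per library. The targeted gene, Nat10, stood between 12.5 and 14.2 FPKM in wild-type and between 13.2 and 13.6 FPKM in sgNAT10 MCA205 libraries, between 13.9 and 15.9 and between 11.7 and 14.2 FPKM in TC1 cells, and between 14.8 and 16.2 and between 12.3 and 16.3 FPKM in tumours. It passed the test in none of the 3 comparisons (edgeR quasi-likelihood test, adjusted p = 0.984, 0.161 and 0.336), and since a cut by a guide can leave the RNA level as it was, this level does not check the labels. Liver and intestine transcripts were present in cultured cells. The summed FPKM of 10 liver marker genes ran from 773 to 1403 in TC1 cells, from 0.84 to 90.4 in MCA205 cells, from 29.3 to 268 in wild-type tumours and from 624 to 674 in sgNAT10 tumours. MCA205 wild type 1 and sgNAT10 2 held the least of them, at 2.90 and 0.84, and MCA205 wild type 2 also held epidermal and muscle transcripts. The 10 lung epithelial markers summed to between 35.1 and 167 FPKM in wild-type and between 50.3 and 87.1 FPKM in sgNAT10 TC1 cells. Of these, 5 had a mean of at least 1 FPKM in each TC1 cell group. Nkx2-1, among the others, stood at most at 0.0573 FPKM in any TC1 cell library. In MCA205 cells the same 10 markers summed to between 45.4 and 102 FPKM in wild-type and between 0.908 and 41.4 FPKM in sgNAT10 libraries. There 7 and 5 of them had a mean of at least 1 FPKM. The sums of wild-type TC1 and wild-type MCA205 cells thus overlapped.

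The libraries labelled as TC1 tumours stood apart from the TC1 cells in culture. Across 12679 genes, mean log2(FPKM + 1) values of wild-type tumours correlated at a Pearson r of 0.88 with wild-type MCA205 cells and of 0.805 with wild-type TC1 cells, as a description across genes that are not independent. By a rule chosen after the data were seen, 56 genes were at least 20 times higher in every TC1 cell library than in any MCA205 library, and 3 of them in wild-type tumours and 15 in sgNAT10 tumours lay nearer the TC1 level. Many of the 56 are liver or intestine genes, Alb, Mup, Serpina1 and Defa genes among them, so the count is also one of the transcripts of those tissues found in the TC1 cell libraries. Dlk1, an imprinted gene among them, averaged 301 and 335 FPKM in the TC1 cell groups and 0.985 and 0.394 FPKM in the tumour groups. Of 4 genes restricted to MCA205 cells in the same way, all 4 lay nearer the MCA205 level in both tumour groups, but H2-D1 and H2-K1 among them are also made by the immune cells of a tumour. Tumour results below are therefore those of libraries labelled TC1 tumours, and whether they derive from the TC1 cells in culture was not tested.

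A gene is named as changed below where its Benjamini-Hochberg adjusted p over all genes tested was under 0.05 in edgeR's quasi-likelihood test of 3 against 3 libraries. In MCA205 cells 6 of 9 members changed, 2 higher and 4 lower, where 40.6% of all genes tested changed, 21.2% higher and 19.4% lower. In TC1 cells 2 of 9 changed, both lower, where 37.9% of all genes changed, 15.9% higher and 22.0% lower. Among tumours 8 members had enough counts to be tested and 4 changed, 2 higher and 2 lower, where 17.4% of all genes changed, 7.65% higher and 9.72% lower. Over all genes tested in tumours 1473 were higher and 1870 lower, and 1505 and 1223 when libraries were scaled by their size alone. FPKM ranges of the groups did not overlap for 6, 2 and 4 members, against 52.6%, 50.8% and 40.4% of all genes tested. With so many of all genes changed in each cell line, the member counts in cells are no result about the pathway, and the size and direction of single genes carry the description. The effect of the guide differed between MCA205 and TC1 cells for 4 of 9 members, where it did for 36.0% of all genes tested, and between tumours and TC1 cells for 4 of 9, where it did for 28.2%. The plot of log2 differences shows how unlike the 3 comparisons were.

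**Figure D1:**
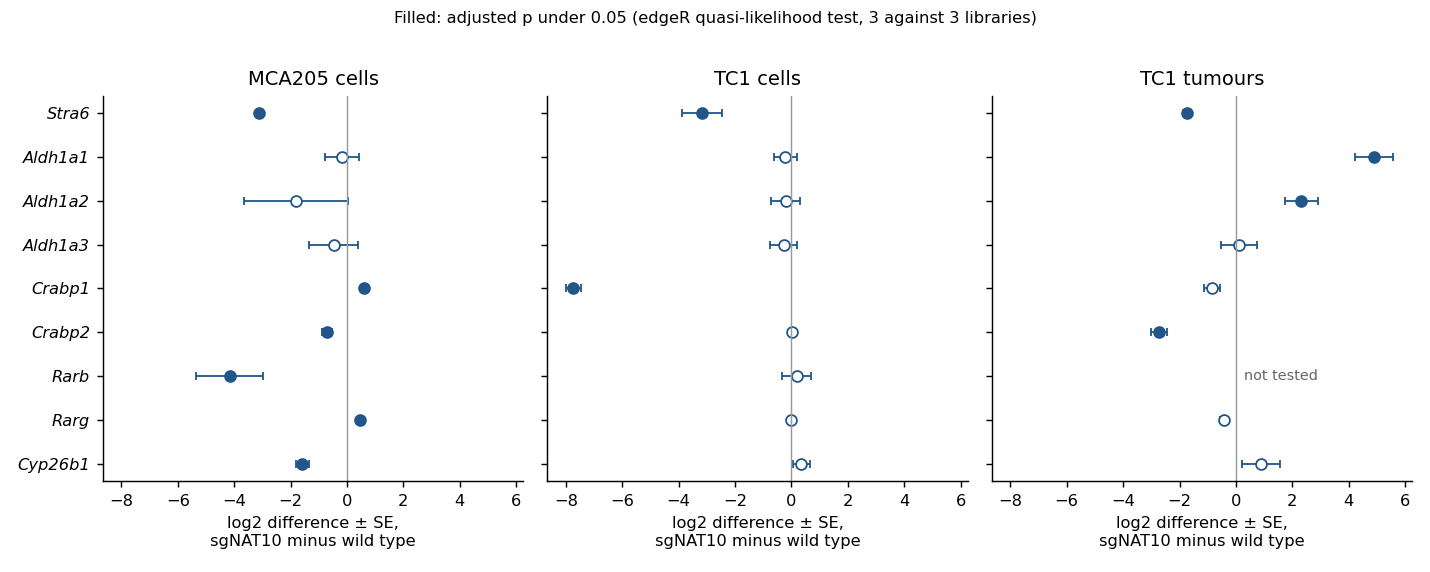
Log2 difference of sgNAT10 against wild-type libraries (horizontal axis, edgeR fit, bars are standard errors) for the 9 members in the 3 comparisons; filled points have an adjusted p under 0.05. Stra6 is lower in all 3 panels (-3.13, -3.17 and -1.75), while Crabp1 is at -7.73 in TC1 cells and at 0.59 in MCA205 cells; no bar is drawn where the difference is under 0.1 in size.

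Stra6, the retinol receptor on chromosome 9, was the 1 member that fell in all 3 comparisons. In MCA205 cells the wild-type libraries held 9.74, 8.81 and 9.64 FPKM and the sgNAT10 libraries 1.12, 1.02 and 1.14 FPKM. The groups lay far apart with little spread, and the fall was 8.74-fold, a log2 difference of -3.13 ± 0.09 (SE; edgeR adjusted p = 1.72e-06). TC1 cells held little of it, with 0.604, 0.218 and 0.208 FPKM against 0.0209, 0.0684 and 0.0177 FPKM, or 125, 40 and 42 against 4, 15 and 4 counts. The ranges did not overlap, but wild type 1 was well above the other 2, and the difference of -3.17 ± 0.72 had an edgeR adjusted p of 0.0126. That call was lost without wild type 1, at -2.40 with an edgeR adjusted p of 0.0568, and without sgNAT10 3, at -2.75 and 0.0547. Without sgNAT10 2 the difference was -3.96.

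Wild-type tumours had the highest Stra6 levels of the series, at 19.3, 23.4 and 24.9 FPKM, and sgNAT10 tumours held 6.81, 9.08 and 6.48 FPKM. Every sgNAT10 tumour lay below every wild-type tumour, with a log2 difference of -1.75 ± 0.12 (SE; edgeR adjusted p = 0.00195). In bulk samples fewer cells of a type and less RNA per cell cannot be told apart. The 8 mural cell markers, of the cells that wrap small vessels, summed to between 43.7 and 78.2 FPKM in wild-type and between 26.8 and 34.2 FPKM in sgNAT10 tumours, and the 8 endothelial markers to between 33.0 and 44.2 and between 64.3 and 75.6 FPKM; of these lists 5 of 8 mural and 6 of 8 endothelial markers had a mean of at least 1 FPKM in both tumour groups. The 5 mesothelial markers, of which 1 was above 1 FPKM, summed to between 66.5 and 93.3 and between 26.3 and 32.9 FPKM. In cultured MCA205 cells the same sum ran from 195 to 232 FPKM in wild-type and from 75.3 to 77 FPKM in sgNAT10 libraries. There too 1 of the 5 had a mean of at least 1 FPKM, so the sum is no measure of mesothelial cells in tumours. The part of these cell types in the tumour results was not tested. The effect on Stra6 did not differ beyond its error between MCA205 and TC1 cells (interaction contrast, log2 -0.02, edgeR adjusted p = 1) or between tumours and TC1 cells (1.35 ± 0.63, edgeR adjusted p = 0.135), which does not show that the effects were alike. Without TC1 sgNAT10 2 the latter difference was 2.24, with an edgeR adjusted p of 0.0416. In MCA205 cells the fall was as large without the 2 libraries that had least liver and intestine transcript (-3.04, edgeR adjusted p = 4.13e-05).

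Nearly all Stra6 signal was placed by the authors on 1 coding transcript, which held between 92.8% and 100% of the gene's FPKM in every cell library. It starts at position 58134075 on the plus strand of chromosome 9 in mm10, inside a gene model that runs from 58063788 to 58153996. The opposite-strand gene Ccdc33 overlaps that model only upstream of this start, up to 58118823. In tumour sgNAT10 2 this transcript held 26.4%, and a coding transcript with another start held 6.27 of the 9.08 FPKM. The sequence just upstream of the main start is shown because the same start carried the fall in MCA205 cells and most of it in tumours. It comes from RefSeq on GRCm38.p6, plus strand, 5′ to 3′, with CpG dinucleotides in capitals.
Stra6 chr9:58133825-58134074: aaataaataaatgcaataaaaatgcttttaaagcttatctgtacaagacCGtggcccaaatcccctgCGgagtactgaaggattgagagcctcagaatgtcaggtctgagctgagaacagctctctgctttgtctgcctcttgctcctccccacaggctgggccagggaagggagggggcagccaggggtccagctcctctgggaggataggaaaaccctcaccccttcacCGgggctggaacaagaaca
It holds 3 CpG, and 71% of 32851 RefSeq promoters have at least as many in the same 250 bases, where the median is 6.

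The aldehyde dehydrogenases Aldh1a1, Aldh1a2 and Aldh1a3 make retinoic acid from retinal, and Aldh1a1 alone was above 1 FPKM in any group mean. Its levels in TC1 cells were 9.93, 15.7 and 4.89 FPKM in wild-type and 10.2, 10.5 and 6.28 FPKM in sgNAT10 libraries. The ranges overlapped and the difference was -0.22 ± 0.41 (SE; edgeR adjusted p = 0.722). MCA205 cells held 0.517, 2.72 and 0.835 FPKM against 1.31, 0.838 and 1.58 FPKM, again overlapping, with the highest value in wild type 2, the library rich in other tissues' transcripts (edgeR adjusted p = 0.847).

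In tumours Aldh1a1 was 30-fold higher with the guide. Wild-type libraries held 0.126, 1.08 and 1.67 FPKM and sgNAT10 libraries 29.7, 34.8 and 24.1 FPKM. The groups were far apart, with a log2 difference of 4.90 ± 0.68 (SE; edgeR adjusted p = 0.00742), which was 5.49 without wild type 3. The effect differed from that in TC1 cells by 5.05 ± 0.84 (interaction contrast, edgeR adjusted p = 0.00123).

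Aldh1a1 is abundant in liver and intestine. Among TC1 cell libraries it was lowest in the 2 with the least intestine transcript and highest in the 1 with the most. Per 100 FPKM of the 12 intestine markers it stood between 2.08 and 3.20 in the 6 TC1 cell libraries and between 0.819 and 3.44 in wild-type tumours, but at 74.3, 69.1 and 59.2 in sgNAT10 tumours. Per 100 FPKM of the 10 liver markers it stood between 0.552 and 1.18 in TC1 cells, between 0.43 and 1.39 in wild-type tumours and between 3.79 and 5.16 in sgNAT10 tumours. In MCA205 cells it stood between 0.901 and 9.83 per 100 FPKM of intestine markers and between 1.66 and 99.8 per 100 FPKM of liver markers. The highest liver ratios, 17.8 and 99.8, were in MCA205 wild type 1 and sgNAT10 2, which held the least liver transcript. The sgNAT10 tumours thus lay above all cell libraries beside intestine markers. Beside liver markers they were several-fold above TC1 cells but not above every MCA205 library. Liver markers themselves were higher in sgNAT10 tumours, from 624 to 674 FPKM, than in wild-type tumours, from 29.3 to 268 FPKM. Epidermal markers were at 20.9, 1.47 and 216 FPKM in sgNAT10 tumours, where Aldh1a1 was at 29.7, 34.8 and 24.1 FPKM. Skeletal muscle markers ran from 88.9 to 135 FPKM in sgNAT10 tumours against 20.9 to 26.4 FPKM in wild-type tumours. The part of other tissues in the Aldh1a1 difference was not tested.

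**Figure D2:**
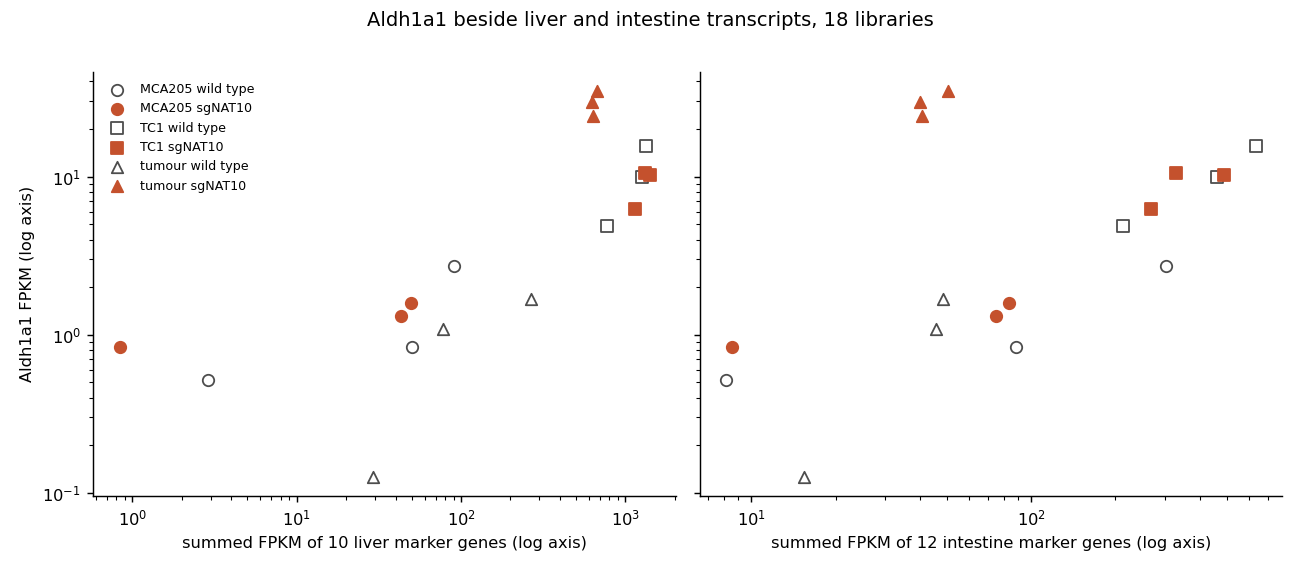
Aldh1a1 FPKM (vertical log axis) against the summed FPKM of 10 liver markers (left) and 12 intestine markers (right, horizontal log axes) in each of the 18 libraries; shapes give the cell line or tumours and filled symbols are sgNAT10. The 3 sgNAT10 tumours, at 24.1 to 34.8 FPKM, lie above all other libraries in both panels.

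Aldh1a2 and Aldh1a3 were low throughout, with no library above 0.682 FPKM. Aldh1a2, the main embryonic enzyme, stood at 0.0386, 0.0515 and 0.0773 FPKM in wild-type and 0.477, 0.143 and 0.276 FPKM in sgNAT10 tumours, from 8, 8 and 12 against 72, 20 and 42 counts. All 3 sgNAT10 tumours were above the wild-type ones (2.32 ± 0.59, SE; edgeR adjusted p = 0.0376), and the effect differed from that in TC1 cells by 2.45 ± 0.78 (interaction contrast, edgeR adjusted p = 0.0377). The call rested on small counts and was lost with every single library left out except wild type 3, with edgeR adjusted p between 0.0631 and 0.144. In MCA205 cells Aldh1a2 was counted at 0, 33 and 23 against 15, 0 and 0. Aldh1a3 passed the test nowhere, its groups overlapping in all 3 comparisons with edgeR adjusted p between 0.71 and 0.925.

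Crabp1, a cytoplasmic carrier of retinoic acid, was the most abundant member in every group but the sgNAT10 TC1 cells. Wild-type TC1 cells held 484, 578 and 571 FPKM and sgNAT10 TC1 cells 3.48, 2.55 and 1.88 FPKM. The groups lay far apart, and the fitted fall was 212-fold, a log2 difference of -7.73 ± 0.25 (SE; edgeR adjusted p = 8.37e-06). The counts behind it were 26038, 27215 and 29168 against 171, 131 and 98, so depth did not limit it. In the same libraries the 9 fibroblast markers summed to between 149 and 189 FPKM in wild-type and between 12.5 and 20 FPKM in sgNAT10 TC1 cells. The 5 mesothelial markers summed to between 30.6 and 39.6 and between 2.06 and 4.13 FPKM, with 1 of them at a mean of at least 1 FPKM in each group. Whether cell type makeup had a part was not tested.

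MCA205 cells went the other way. Crabp1 was at 70.9, 68.4 and 65.4 FPKM in wild-type and at 105, 105 and 97.1 FPKM in sgNAT10 libraries, which did not overlap, a rise of 1.51-fold (0.59 ± 0.05, SE; edgeR adjusted p = 0.000205). The effects in the 2 lines differed by 8.27 ± 0.24 on the log2 scale (interaction contrast, edgeR adjusted p = 5.94e-09). The MCA205 fibroblast marker sum ran from 96.2 to 114 FPKM in wild-type and from 243 to 250 FPKM in sgNAT10 cells. Dcn, the proteoglycan decorin, made up 14.2 ± 3.41 FPKM of it in wild-type and 195 ± 3.88 FPKM in sgNAT10 cells (SD, n = 3). Without Dcn, the mean sum of the other fibroblast markers was lower in sgNAT10 than in wild-type MCA205 cells.

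Tumours held 141, 108 and 76.6 FPKM of Crabp1 in wild-type and 56.9, 80.2 and 62.0 FPKM in sgNAT10 libraries. Wild type 3 fell inside the sgNAT10 range, and the difference of -0.86 ± 0.28 (SE) had an edgeR adjusted p of 0.0727. It passed without wild type 3 (-1.10, edgeR adjusted p = 0.0167) and with DESeq2 (-0.87, DESeq2 adjusted p = 0.0102). The lowest sgNAT10 tumour thus held many times the Crabp1 of any sgNAT10 TC1 cell library, and the effects in tumours and TC1 cells differed by 6.80 ± 0.43 (interaction contrast, edgeR adjusted p = 3.02e-06). Both interaction contrasts use the same TC1 cell libraries.

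Crabp1 has 1 transcript in the tables, from 54764748 to 54773110 on the plus strand of chromosome 9 in mm10, so no shift between isoforms enters its level. The 250 bases upstream of that start are printed because the fall of Crabp1 in TC1 cells was the largest difference of any member in the 3 comparisons. The sequence is from RefSeq on GRCm38.p6, plus strand, 5′ to 3′, with CpG dinucleotides in capitals.
Crabp1 chr9:54764498-54764747: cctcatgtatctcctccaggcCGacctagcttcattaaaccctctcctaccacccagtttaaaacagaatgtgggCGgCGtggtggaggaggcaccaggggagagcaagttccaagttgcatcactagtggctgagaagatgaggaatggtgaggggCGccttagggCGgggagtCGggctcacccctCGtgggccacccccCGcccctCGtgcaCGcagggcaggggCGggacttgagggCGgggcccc
It holds 12 CpG, and 33.5% of the RefSeq promoters have at least as many in the same 250 bases. Methylation was not measured here.

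Across the 18 libraries the genes whose log2(FPKM + 1) was most like that of Crabp1, among 10254 named genes with a group mean of at least 5 FPKM, were Slc1a4, Ldlrad3, Cdk10, Osr1 and Jag1, with Pearson r of 0.976, 0.954, 0.947, 0.945 and 0.944. The libraries fall into 6 groups and 3 tables, so these are descriptions with no test. Slc1a4, a neutral amino acid transporter, averaged 33.5 FPKM in wild-type and 5.43 FPKM in sgNAT10 TC1 cells and between 17.2 and 21.1 FPKM elsewhere. Osr1, a transcription factor of mesenchyme, averaged 23.7 and 1.59 FPKM in the TC1 cell groups. Jag1, a Notch ligand, averaged 5.58 and 1.12 FPKM there. All 5 were lowest in sgNAT10 TC1 cells, which their choice by likeness to Crabp1, itself lowest there, favours.

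Crabp2, the carrier that passes retinoic acid to nuclear receptors, followed another pattern. Its levels in tumours were 24.4, 13.9 and 22.4 FPKM in wild-type and 2.92, 3.20 and 3.89 FPKM in sgNAT10 libraries. The groups were clearly apart, with a 6.66-fold fall (-2.73 ± 0.29, SE; edgeR adjusted p = 0.00385). MCA205 cells held 4.86, 5.50 and 4.08 FPKM against 3.18, 3.01 and 2.58 FPKM, ranges that did not overlap (-0.71 ± 0.19, SE; edgeR adjusted p = 0.0227).

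That smaller MCA205 fall was not held under every choice. Dropping wild type 1 or 2, or sgNAT10 2 or 3, ended the call, with edgeR adjusted p of 0.0574, 0.0621, 0.0545 and 0.0717, and without the pair of libraries lowest in liver transcripts, at 0.0786. In TC1 cells Crabp2 stood at 0.645, 0.29 and 0.183 FPKM against 0.231, 0.417 and 0.526 FPKM, overlapping (0.01, edgeR adjusted p = 0.988). The effect in tumours differed from that in TC1 cells by -2.82 ± 0.59 (interaction contrast, edgeR adjusted p = 0.0047). The 2 carriers therefore moved in unlike ways, with Crabp1 by far the higher in wild-type TC1 cells and Crabp2 highest in wild-type tumours.

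**Figure D3:**
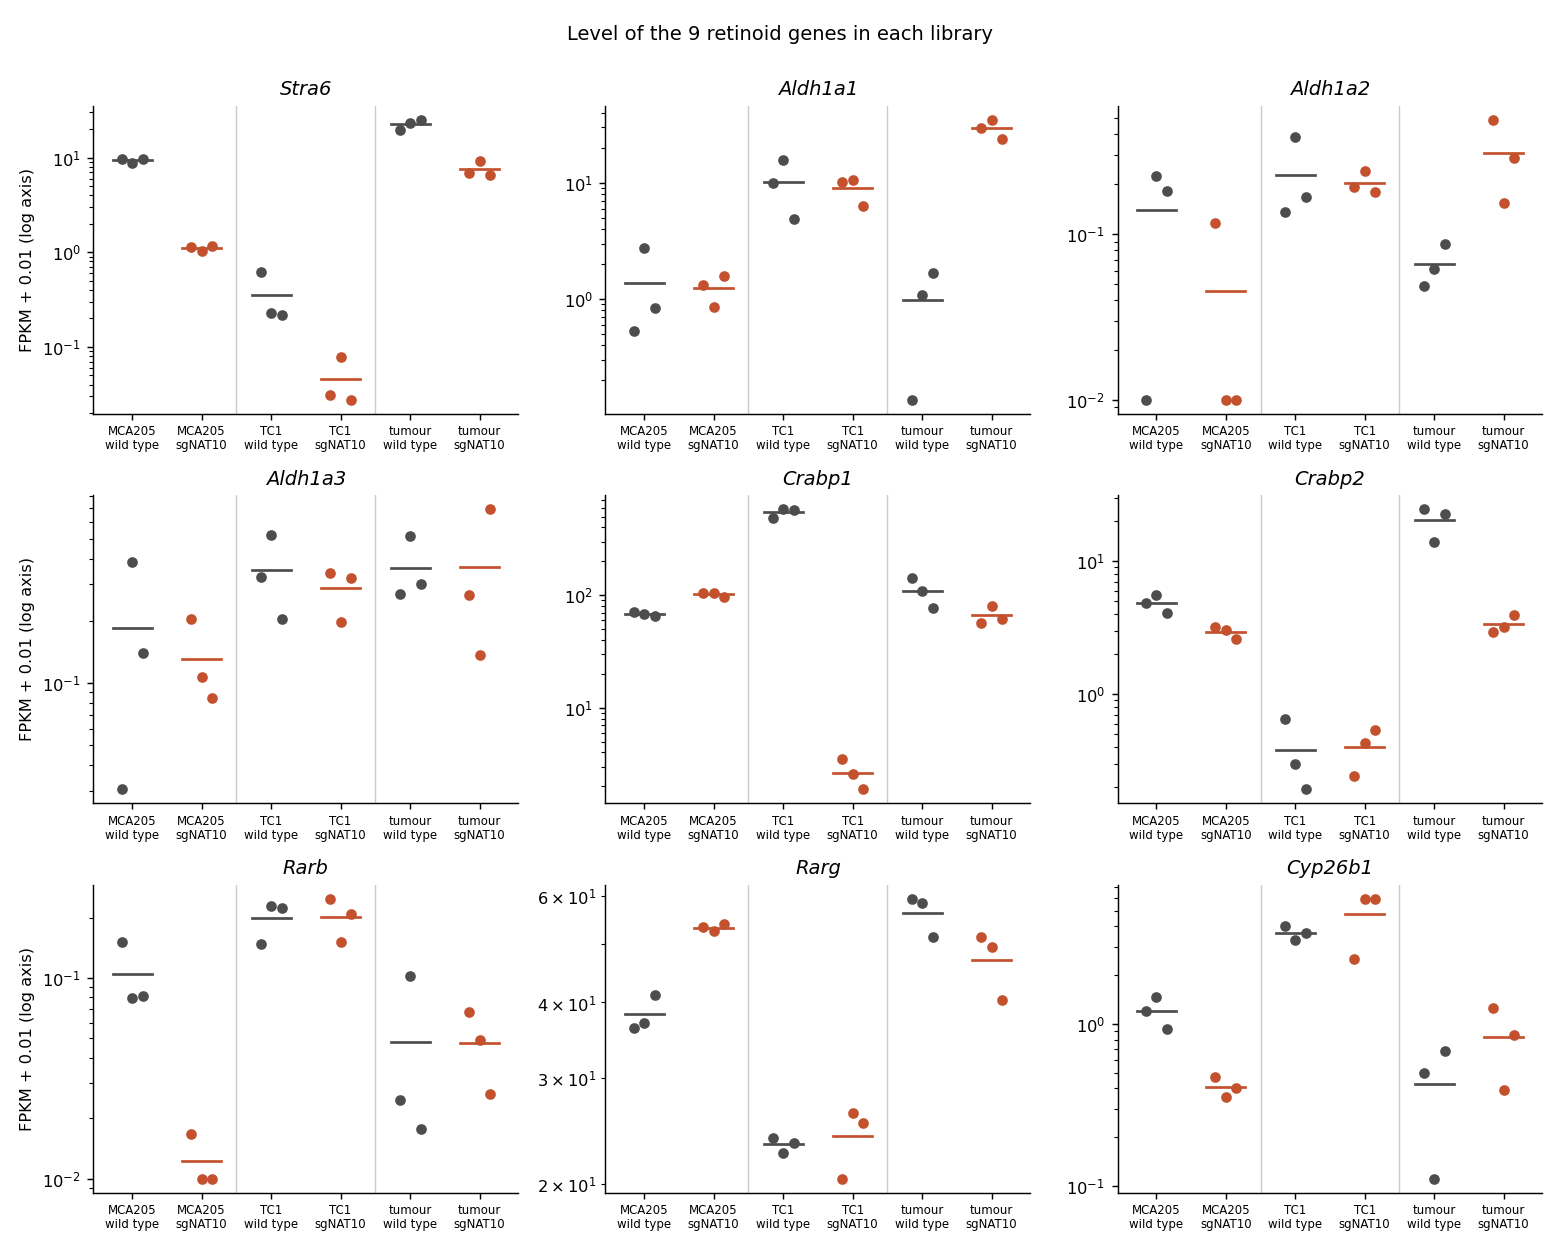
FPKM + 0.01 (vertical log axis, own range in each panel) of the 9 members in each of the 18 libraries; points are libraries, horizontal bars the mean of 3, grey wild type and red sgNAT10. Crabp1 spans from 1.88 to 578 FPKM, Stra6 is lower in each red group than in its grey neighbour, and Aldh1a1 is highest in sgNAT10 tumours. Tables may have been normalised separately, so levels across the vertical lines are descriptions.

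Rarg, one of the retinoic acid receptors, was the best expressed receptor of the 2 members. MCA205 cells held 36.3, 37.0 and 41.1 FPKM in wild-type and 53.3, 52.5 and 53.9 FPKM in sgNAT10 libraries. The ranges did not overlap, with a rise of 1.37-fold (0.46 ± 0.05, SE; edgeR adjusted p = 0.000682). In TC1 cells it stood at 23.8, 22.5 and 23.4 FPKM against 20.4, 26.2 and 25.2 FPKM, with sgNAT10 1 below and the other two above the wild-type range.

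The TC1 difference was -0.01 (edgeR adjusted p = 0.94), its sign turned under both other scalings, and without sgNAT10 1 it turned to 0.18 with an edgeR adjusted p of 0.047. The effects in the 2 lines differed by 0.42 ± 0.12 (interaction contrast, edgeR adjusted p = 0.0238), a call that did not hold when MCA205 wild type 1, MCA205 wild type 2, MCA205 sgNAT10 1 or TC1 wild type 3 was dropped (edgeR adjusted p = 0.0538, 0.0519, 0.0558 and 0.0518). Tumours held 59.4, 58.4 and 51.4 FPKM against 51.4, 49.5 and 40.3 FPKM, touching at the edge (-0.43 ± 0.15, SE; edgeR adjusted p = 0.0918). Without tumour wild type 3 that difference was -0.56 with an edgeR adjusted p of 0.0309.

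Reads of Rarg were split by the authors between a pair of coding transcripts that end together and start apart on the minus strand of chromosome 15, at 102257517 and 102246500 in mm10. The upstream start carried 58.3%, 56.3% and 58.1% of Rarg FPKM in wild-type TC1 cells and 45.0%, 45.0% and 40.8% in sgNAT10 TC1 cells. Those ranges did not overlap, while the gene total did not pass the test, and the shares themselves were not tested. The upstream transcript stood at 13.9, 12.7 and 13.6 FPKM against 9.20, 11.8 and 10.3 FPKM, and the downstream one at 9.38, 8.74 and 8.87 FPKM against 10.7, 13.4 and 14.4 FPKM. In MCA205 cells the upstream share was 77.1%, 75.6% and 67.5% against 75.6%, 69.1% and 41.2%, where sgNAT10 3 stood alone. Tumour shares overlapped, from 55.1% to 68.6% and from 58.3% to 70.0%. The shares rest on how the authors' program divided reads between transcripts that share most exons.

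**Figure D4:**
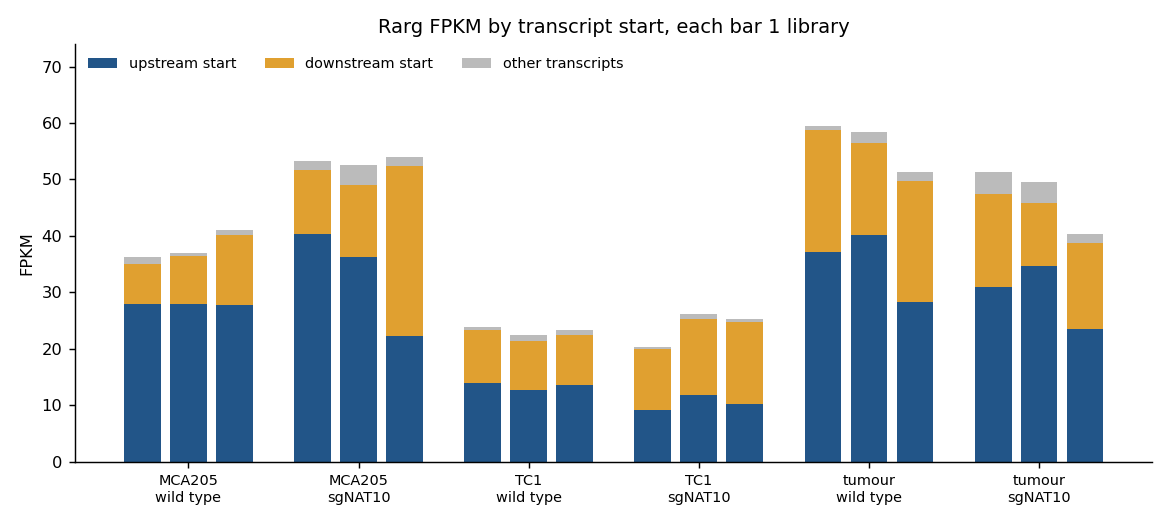
Rarg FPKM (vertical axis from 0) in each of the 18 libraries, each bar 1 library, stacked by the coding transcript with the upstream start, that with the downstream start, and all others. The upstream part is 56.3% to 58.3% of the bar in wild-type and 40.8% to 45.0% in sgNAT10 TC1 cells, and 1 MCA205 sgNAT10 library, replicate 3, has a share of 41.2%.

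Rarb, the receptor best known for being induced by retinoic acid, was near the limit of detection. MCA205 wild-type libraries held 19, 13 and 9 counts and sgNAT10 libraries 2, 0 and 0 counts. In the wild-type libraries the authors placed 94.5%, 40.4% and 56.3% of Rarb FPKM on a transcript that keeps an intron, so coding transcripts held only part of this signal. Pooled, 41 against 2 counts give a ratio of 22.2, with an exact 95% interval from 5.77 to 190 that covers counting error only. The edgeR call (adjusted p = 0.0296) came with a fitted difference of -4.16 that depends on the prior count. It was lost without wild type 3, sgNAT10 2 or sgNAT10 3 (edgeR adjusted p = 0.0738, 0.0823 and 0.0973). With no filter or with a replicate block it was lost too (edgeR adjusted p = 0.0801 and 0.0817). Without wild type 1 or wild type 2 the gene did not pass the filter on low counts. TC1 cells held 15, 34 and 41 against 46, 26 and 34 counts, overlapping (0.18 ± 0.51, SE; edgeR adjusted p = 0.82). In tumours the 5, 17 and 2 against 10, 8 and 4 counts were too few to be tested.

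The opposite-strand gene Top2b overlaps the 3′ end of the Rarb model between 16430839 and 16435462 on chromosome 14, and since the sources used here give no strand setting, reads of the pair cannot be told apart there. The Rarb transcript that keeps an intron, from 16547270 to 16575440, lies outside that stretch. Direct repeats of the receptor half-site were searched in the RefSeq promoters, 250 bases before to 50 after each start, for 7 members with an entry and 12 starts among them. The half-site was AGGTCA or its variants, namely AGTTCA besides GGTTCA together with GGGTCA, on both strands, with 1, 2 or 5 bases between them. Rarb held the only match among members, with 5 bases between, beginning 53 bases before the start on the gene's own strand. Of the 76 genes in wider retinoid lists, 55 had an entry, and Cyp26a1, which encodes another enzyme of retinoic acid breakdown, held a match with the same spacing on the opposite strand. Bco1, which encodes the enzyme that cleaves beta-carotene to retinal, held one with 1 base between, also on the opposite strand. The 2 matches with 5 bases between are printed because they have the textbook spacing of the element, 5′ to 3′ on their own (minus) strand of GRCm38.p6, with half-sites in capitals.
Rarb chr14:16575513-16575529: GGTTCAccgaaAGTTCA
Cyp26a1 chr19:37697776-37697792: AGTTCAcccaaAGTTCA
A repeat with 5 bases between was found in 32 of 32851 RefSeq promoters (0.0974%), and one with any of the 3 spacings in 193 (0.588%). A match is not a measured binding site, and Cyp26a1 was low in these libraries too, with 0.228 ± 0.117 FPKM in wild-type and 0.712 ± 0.00749 FPKM in sgNAT10 MCA205 cells (SD, n = 3), a rise that passed the test (1.84 ± 0.36, SE; edgeR adjusted p = 0.0065).

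Cyp26b1, which breaks retinoic acid down, fell in MCA205 cells. Its levels were 1.20, 1.46 and 0.92 FPKM in wild-type and 0.462, 0.344 and 0.395 FPKM in sgNAT10 libraries, 2.99-fold less with no overlap (-1.58 ± 0.23, SE; edgeR adjusted p = 0.00182). TC1 cells had the highest levels, at 4, 3.31 and 3.64 FPKM against 2.52, 5.89 and 5.90 FPKM. There sgNAT10 1 lay below every wild-type library and the other two above, so the difference of 0.35 ± 0.30 did not pass (edgeR adjusted p = 0.42), but without sgNAT10 1 it was 0.74 with an edgeR adjusted p of 0.00304. Tumours held 0.485, 0.101 and 0.67 FPKM against 1.25, 0.383 and 0.843 FPKM, overlapping (edgeR adjusted p = 0.393). The effects in MCA205 and TC1 cells differed by -1.98 ± 0.42 (interaction contrast, edgeR adjusted p = 0.00349).

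In MCA205 cells Stra6, Crabp2, Rarb and Cyp26b1 fell, and so did Dhrs3, a retinal reductase that retinoic acid is known to induce (5.58 ± 0.0756 against 1.66 ± 0.496 FPKM, SD, n = 3; log2 -1.61 ± 0.24, edgeR adjusted p = 0.00173), while Cyp26a1 and Tgm2, also known targets, rose. Tgm2, a transglutaminase, stood at 21.4 ± 1.64 against 56.7 ± 1.19 FPKM (SD, n = 3; log2 1.41 ± 0.05, edgeR adjusted p = 3.53e-06). It fell in TC1 cells (25.1 ± 2.52 against 9.48 ± 3.84 FPKM; log2 -1.45 ± 0.30, edgeR adjusted p = 0.00865), and the effects in the 2 lines differed by 2.81 ± 0.34 (interaction contrast, edgeR adjusted p = 0.000107).

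The wider pathway was read from 6 lists of 76 genes in all, chosen by role. In MCA205 cells 14 of the 62 tested rose and 10 fell, where 21.2% of all genes were called higher and 19.4% lower, with a median log2 difference of -0.05 beside -0.03 for all genes tested. Of 17 enzymes tested that interconvert retinol and retinal, 3 rose and 5 fell. Dhrs9, a retinol dehydrogenase, rose from 1.73 to 5.32 FPKM (1.62 ± 0.08, SE; edgeR adjusted p = 1.2e-05), and Rdh11, a retinal reductase, fell from 36.6 to 22.9 FPKM (-0.67 ± 0.05; edgeR adjusted p = 6.34e-05). Rdh10, which makes retinal for retinoic acid synthesis, fell from 7.89 to 5.83 FPKM (-0.42 ± 0.08; edgeR adjusted p = 0.00486). Fabp5, a fatty acid carrier that can also take retinoic acid to PPARδ, fell from 53.4 to 17.2 FPKM (-1.59 ± 0.07; edgeR adjusted p = 9.77e-06), while Ppard itself rose from 15.5 to 20.1 FPKM (0.39 ± 0.04; edgeR adjusted p = 0.000253). Of 4 receptors and partners tested, Rara rose too, from 7.20 to 10 FPKM (0.47 ± 0.07; edgeR adjusted p = 0.00191), and Rxra, the common partner, did not pass (0.06, edgeR adjusted p = 0.401).

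Among 12 coregulators tested in MCA205 cells 1 rose and 4 fell, including Tbl1xr1 of the corepressor complex (13.6 to 8.47 FPKM; -0.72 ± 0.04, SE; edgeR adjusted p = 3.48e-05) and the coactivator Ncoa2 (9.43 to 6.65 FPKM; -0.53 ± 0.05; edgeR adjusted p = 0.000212). Of 17 response genes tested 6 rose and none fell, against 21.2% and 19.4% of all genes, led by Itgb7, an integrin chain, from 27.1 to 101 FPKM (1.88 ± 0.05; edgeR adjusted p = 1.23e-06). That list leaves out Rarb, Stra6, Crabp2, Cyp26b1 and Dhrs3, which fell in these cells, and Cyp26a1, which rose. All of them are also known to respond to retinoic acid, so the count depends on how genes were sorted into lists. Of 9 retinol carriers tested 1 rose, Rlbp1, which was counted at 0 in all wild-type libraries and at 29, 18 and 11 in sgNAT10 libraries.

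In TC1 cells 14 of the 66 list genes tested rose and 8 fell, where 15.9% of all genes were called higher and 22.0% lower, with a median of -0.04 beside -0.08 for all genes. Fabp5 rose from 29.1 to 77.6 FPKM (1.36 ± 0.10, SE; edgeR adjusted p = 0.000161), opposite to MCA205 cells, and the effects differed by -3.00 ± 0.15 (interaction contrast, edgeR adjusted p = 2.95e-07). Rdh10 fell from 4.18 to 1.77 FPKM (-1.29 ± 0.15; edgeR adjusted p = 0.000713), and the alcohol dehydrogenase Adh7 from 20.2 to 8.52 FPKM (-1.30 ± 0.12; edgeR adjusted p = 0.000361). Of the receptors Rxrb fell from 33.7 to 19.8 FPKM (-0.81 ± 0.06; edgeR adjusted p = 0.000182) and Rxra rose from 11.9 to 16.6 FPKM (0.43 ± 0.07; edgeR adjusted p = 0.00323), while Rara did not pass (0.05, edgeR adjusted p = 0.831). The corepressor Ncor1 fell from 30.2 to 21.3 FPKM (-0.52 ± 0.05; edgeR adjusted p = 0.000498) and the acetyltransferase Crebbp rose from 4.62 to 7.17 FPKM (0.58 ± 0.06; edgeR adjusted p = 0.000601).

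Of 20 response genes tested in TC1 cells 7 rose and 2 fell, against 15.9% and 22.0% of all genes. As in MCA205 cells, the list leaves out the members, Dhrs3 and Cyp26a1. The homeobox gene Hoxa5 rose from 4.20 to 12.2 FPKM (1.49 ± 0.09, SE; edgeR adjusted p = 6.36e-05) and Cd38, an ectoenzyme, from 1.39 to 9.09 FPKM (2.65 ± 0.32; edgeR adjusted p = 0.000943). Itgb7 fell from 16.3 to 4.16 FPKM (-2.03 ± 0.28; edgeR adjusted p = 0.00171), and its effects in the 2 lines differed by 3.85 ± 0.32 (interaction contrast, edgeR adjusted p = 8.37e-06). Dhrs3 and Cyp26a1 did not pass, with edgeR adjusted p of 0.641 and 0.187.

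In tumours 7 of the 65 list genes tested rose and 6 fell, where 7.65% of all genes were called higher and 9.72% lower, with a median of 0.15 beside 0.02 for all genes. These 13 calls became 2 without sgNAT10 2, 2 without sgNAT10 3, 3 without sgNAT10 1 and 6 without wild type 2, and they were 6 with no filter and 20 with DESeq2. Dhrs9 rose from 2.50 to 6.19 FPKM (1.21 ± 0.16, SE; edgeR adjusted p = 0.00698), and Lpl, a lipase that can free retinol from its esters in plasma lipid, from 0.607 to 1.65 FPKM (1.32 ± 0.23; edgeR adjusted p = 0.0123). Rdh10 fell from 22.8 to 15 FPKM (-0.74 ± 0.10; edgeR adjusted p = 0.00702), Hdac3 of the corepressor complex from 54.9 to 39.8 FPKM (-0.61 ± 0.11; edgeR adjusted p = 0.0154), Rxrb from 23.7 to 17.6 FPKM (-0.57 ± 0.11; edgeR adjusted p = 0.0173) and Zfp703, a transcriptional regulator in the response list, from 10.2 to 6.57 FPKM (-0.78 ± 0.16; edgeR adjusted p = 0.0196). Tgm2 rose from 70.2 to 148 FPKM (0.98 ± 0.23; edgeR adjusted p = 0.0301). Stra8, a germ cell gene induced by retinoic acid, rose at a very low level, from 5, 0 and 4 to 43, 34 and 34 counts (3.68 ± 0.84; edgeR adjusted p = 0.0276).

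Of these tumour genes Dhrs9 kept its call with each library left out, and the other named ones each lost it without at least 1 library. The highest edgeR adjusted p was 0.0504 for Rdh10, 0.0803 for Hdac3, 0.0876 for Rxrb, 0.0934 for Zfp703 and 0.101 for Stra8, in each case without sgNAT10 2, and 0.101 for Tgm2 without wild type 2 and 0.0566 for Lpl without sgNAT10 3. Rara, Rxra, Dhrs3 and Cyp26a1 did not pass (edgeR adjusted p = 0.194, 0.14, 0.201 and 0.0576). The retinol carriers had a median difference of 1.29 in tumours. Rbp4 and Ttr, plasma carriers of retinol made by liver, stood at 0.288, 1.82 and 8.54 against 19.7, 20.1 and 21.7 FPKM and at 0, 2.45 and 11.4 against 34.1, 35.5 and 34.3 FPKM. Neither passed (edgeR adjusted p = 0.0911 and 0.156). Their order among the wild-type tumours was that of the liver marker sums, but Ttr is itself among the 10 liver markers. The part of liver transcripts in these values was not tested.

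**Figure D5:**
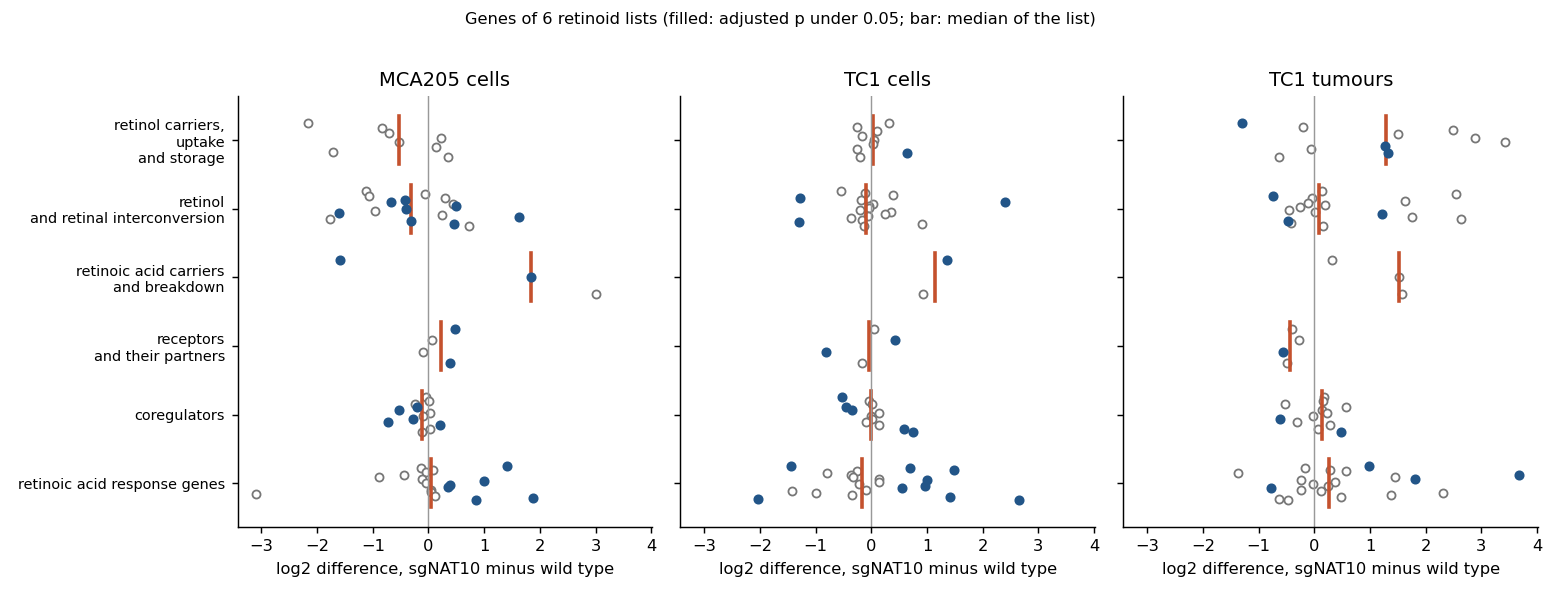
Log2 difference of sgNAT10 against wild type (horizontal axis, edgeR fit) for each tested gene of 6 retinoid lists in the 3 comparisons; filled points have an adjusted p under 0.05 and red bars mark list medians. Points fall on both sides of 0 in nearly all lists, and medians of the list of 3 retinoic acid carriers and breakdown genes, at 1.84, 1.14 and 1.52, rest on at most 3 genes; Rlbp1, with all wild-type cell libraries at 0 counts, is not drawn.

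By level, the order of groups differed from member to member. Stra6 ran from wild-type tumours (22.5 ± 2.92 FPKM, SD, n = 3) through wild-type MCA205 cells (9.40 ± 0.512), sgNAT10 tumours (7.46 ± 1.41), sgNAT10 MCA205 cells (1.09 ± 0.065) and wild-type TC1 cells (0.344 ± 0.226) to sgNAT10 TC1 cells (0.0357 ± 0.0284), with overlap between wild-type MCA205 cells and sgNAT10 tumours alone. Crabp1 ran from wild-type TC1 cells (544 ± 52.4) through wild-type tumours (109 ± 32.2), sgNAT10 MCA205 cells (102 ± 4.64), wild-type MCA205 cells (68.2 ± 2.76) and sgNAT10 tumours (66.4 ± 12.2) to sgNAT10 TC1 cells (2.64 ± 0.802), where wild-type tumours overlapped with sgNAT10 MCA205 cells, and wild-type MCA205 cells with sgNAT10 tumours. Crabp2 was highest in wild-type tumours (20.2 ± 5.58) and below 1 FPKM in both TC1 cell groups, which overlapped. Rarg ran from 56.4 ± 4.37 in wild-type tumours to 23.3 ± 0.653 in wild-type TC1 cells, a range far narrower than that of the carriers. For Aldh1a2 and Aldh1a3 every neighbouring pair in the order overlapped.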

How the data were processed

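RNA was measured in 18 mouse libraries. The deposited tables, 1 for each cell line and 1 for tumours, give an estimated count, stored as whole numbers, and an FPKM value per transcript; per the file headers both were made by the authors for each library, and the sources used here do not give the program behind them. Per the submitters' processing notes the tools were featureCounts, Bowtie2, Trim Galore and FastQC and the build mm10, without roles or versions. Columns named KO were taken as the samples labelled sgNAT10.

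Transcripts were summed per gene identifier, and counts were tested with edgeR 4.0.16 (R 4.3.3; TMM scaling, default expression filter, quasi-likelihood test, Benjamini-Hochberg adjusted p under 0.05) in each table, with 18101, 18823 and 19244 genes tested. Differences between effects were interaction contrasts over 12 libraries, with 20272 and 20706 genes. Standard errors are the log2 difference divided by the root of the F statistic, and none is given where the difference is under 0.1. On simulated counts with 200 changed genes the test recovered 83%, 88% and 80% of 4-fold changes and 72%, 68% and 46% of 2-fold changes in MCA205 cells, TC1 cells and tumours, and 8.82%, 10.86% and 9.35% of its calls were genes not changed. Those shares of false calls lay above the 0.05 aimed at. The changed genes were drawn from those with a mean above 50 counts, so the recovery does not cover members below that, such as Rarb.

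Alternatives were other scalings, no filter, DESeq2 1.42.0, limma 3.58.1 on log2(FPKM + 1) and log2(FPKM + 0.1), a replicate block, each library left out, and MCA205 wild type 1 and sgNAT10 2 left out together. All 9 members were named, with the 8 wider-list genes of smallest p in each comparison and Rara, Rxra, Rdh10, Dhrs3, Cyp26a1 and Tgm2, except 1 gene that is not reported here; other list genes named beside them were picked after their values were seen. The members and lists were chosen with earlier results of these data known, among them the fall of Crabp1 in TC1 cells. Promoters came from RefSeq on GRCm38.p6. No 2 libraries of a group agreed within sampling noise.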

Additional observations from a re-analysis of the deposited data

Results flagged for a closer look

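The effect of the guide differed by a test of the difference itself for 4 of 9 members between MCA205 and TC1 cells, where it did for 36.0% of all genes tested. Between tumours and TC1 cells it differed for 4 of 9, where it did for 28.2% (edgeR interaction contrasts over 12 libraries, log2 scale). Both sets use the same TC1 cell libraries, and the counts are no result about the members as a set. Between MCA205 and TC1 cells the difference was 8.27 for Crabp1 (edgeR adjusted p = 5.94e-09), -4.39 for Rarb (0.0148), 0.42 for Rarg (0.0238) and -1.98 for Cyp26b1 (0.00349). Rarb rests on 41 against 2 counts in MCA205 cells. Between tumours and TC1 cells it was 6.80 for Crabp1 (edgeR adjusted p = 3.02e-06), -2.82 for Crabp2 (0.0047), 5.05 for Aldh1a1 (0.00123) and 2.45 for Aldh1a2 (0.0377). Aldh1a2 rests on at most 72 counts in any tumour library, and its call was lost without any 1 of 8 libraries, among them TC1 wild type 2 (1.85, edgeR adjusted p = 0.111).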

How the results depend on the processing

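Over the 5 comparisons, 590 member results under an alternative stayed on their side of the threshold with no called value changing sign, 37 lost the call, 7 gained it and 1 reversed, which was Rarg in TC1 cells at 0.18 without TC1 sgNAT10 1 (from -0.00 to 0.18 with a library left out). Some members past the threshold in neither setting changed sign, such as Aldh1a1 in MCA205 cells (-0.59 to 0.77) and Crabp2 in TC1 cells (-0.20 to 0.69). Crabp1 kept its call in all 15 settings run in MCA205 cells (0.55 to 0.64) and all 14 in TC1 cells (-7.89 to -7.25), Stra6 in all 15 in MCA205 cells (-3.19 to -2.31) and all 14 in tumours (-1.87 to -1.48), and Crabp2 and Aldh1a1 in all 14 in tumours (-2.97 to -2.26 and 4.03 to 5.49). The number of members called in TC1 cells was 1 with limma at either pseudocount, where Stra6 was below the FPKM minimum, and ran from 1 to 4 with a library left out. Genes called in tumours, 3343 in all, were 2152 with no filter and ran from 555 to 4612 with a library left out (555 without sgNAT10 2, 906 without sgNAT10 3, 975 without sgNAT10 1 and 1080 without wild type 2); the cause was not tested. Without MCA205 wild type 1 and sgNAT10 2 together, 2 members differed between MCA205 and TC1 cells in place of 4, Rarb being at -3.46 (edgeR adjusted p = 0.0631) and Rarg at 0.40 (0.0673). Replicate numbers did not pair the libraries: deviations of same-numbered libraries correlated between -0.56 and 0.27. With a replicate block 5689, 5705 and 836 genes were called in MCA205 cells, TC1 cells and tumours, and 5955 and 4229 in the contrasts of MCA205 and of tumours with TC1 cells. Members called were 4, 2, 3, 3 and 3 in that order, and 5 genes of the wider lists were called in tumours. Leaving out a library leaves 2 in its group, and depth limits Rarb, Aldh1a2 and Stra6 in TC1 cells, which rest on at most 125 counts in a library.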
